A study of Mus musculus with 8 samples.

Results

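The oligoadenylate synthetase (OAS) genes measured here were Oas1a, Oas1g, Oas2, Oas3, Oasl1 and Oasl2, which are 6 of the 16486 genes in the expression table of sorted mouse blood monocytes (MCs). They were taken by symbol, and all 6 were found. The family was selected on measured values, the log2 differences between db/db and control Ly6Chigh MCs, where Oasl2 and Oas1a lay furthest below control of the OAS genes, and with the subset values of an interferon-stimulated list that held Oas2 also in view. The 2 further symbols of the same gene family, Oas1b and Oas1c, that the table held are given beside the members.

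The values come from 8 RNA sequencing libraries. Male C57/BL6 wild type mice served as control (CT), with 2 libraries each of Ly6Chigh and Ly6Clow MCs. Type 1 diabetes mellitus (T1DM) was modelled by STZ, the beta cell toxin streptozotocin, given to C57/BL6 mice at 50 mg/kg/day for 5 days from 8 weeks of age, and type 2 diabetes mellitus (T2DM) by the db/db genotype, a leptin receptor mutation. Of each diabetic model, 1 library of each subset was analysed here. The methods of the study describe duplicates for every group, and further diabetic libraries are not analysed here. Blood was taken at 20 to 22 weeks, MCs were sorted as CD11b+Ly6G- cells with high or low surface Ly6C, and each library held RNA pooled from 5 mice. The CT duplicates may therefore share their RNA, and the spread between them may be technical. A NextSeq 500 was used for every CT library and a HiSeq 4000 for every diabetic one, so that diabetes and sequencer cannot be told apart in any comparison with CT.

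OAS enzymes are cytosolic sensors of double-stranded RNA. On binding it they join ATP into short chains of adenosine with 2′-5′ bonds (2-5A), which set off the cleavage of viral and cellular RNA. Type I interferon induces the genes through transcription factors that bind the interferon-stimulated response element (ISRE). In the mouse, Oas1a, Oas2 and Oas3 encode 2-5A synthetases, Oas1g is a close copy of Oas1a, and Oasl1 and Oasl2 encode OAS-like proteins that carry ubiquitin-like domains. Oasl1 is known as a translational inhibitor of Irf7, and Oasl2 retains synthetase activity.

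All 6 genes lie on chromosome 5 in 2 clusters (RefSeq, GRCm38.p6, which is mm10). Oasl2 (chr5:114896926-114912245) and Oasl1 (chr5:114923143-114937911) are neighbours. Oas2 (chr5:120730333-120749886), Oas3 (chr5:120753098-120777684), Oas1g (chr5:120876142-120887613) and Oas1a (chr5:120896256-120907544) form the other cluster, with other Oas1 copies among them. Promoters of 250 bases before and 50 after a start site were matched in the RefSeq table for 5 of the 6 genes, all except Oas2. They were searched on both strands for the ISRE core GAAANNGAAA, held by 3.44% of all 32851 mouse promoters of this length, and for TTCNNNGAA, the core of the gamma-activated site (GAS), held by 8.30%. The 100 bases before the start site are shown for the 3 genes with an ISRE core, since these letters are what the closely related Oas1a and Oas1g share and where Oas3 differs from them. Capitals mark the ISRE core matches, and each sequence is written 5′ to 3′ on the strand of its gene, the minus strand.
Oas1a, chr5:120907526-120907625: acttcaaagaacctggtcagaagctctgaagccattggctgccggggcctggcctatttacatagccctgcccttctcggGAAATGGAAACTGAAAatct
Oas1g, chr5:120887614-120887713: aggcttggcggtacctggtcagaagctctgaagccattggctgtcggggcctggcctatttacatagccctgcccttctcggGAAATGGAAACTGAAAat
Oas3, chr5:120777660-120777759: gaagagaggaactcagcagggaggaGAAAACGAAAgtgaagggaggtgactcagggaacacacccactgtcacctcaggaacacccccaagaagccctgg
Oas1a and Oas1g each held 2 overlapping matches close to the start, GAAATGGAAA and GAAACTGAAA, at 20 to 11 and 14 to 5 bases before it in Oas1a and at 18 to 9 and 12 to 3 bases before it in Oas1g. Oas3 held 1 match, GAAAACGAAA, at 75 to 66 bases before its start. A GAS core was found in the Oas1a promoter alone among the 5, as TTCAAAGAA at 98 to 90 bases before the start, a sequence that matches on both strands. Neither motif was found in the windows of Oasl1 and Oasl2. The start sites used lie inside the outermost annotated end of the gene by 19 bases in Oas1a, 25 in Oas3, 8 in Oasl2 and 97 in Oasl1, and by 0 in Oas1g. Distances, and what the window holds, depend on the start chosen. A match is a description of the letters and not of a bound factor.

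**Figure D1:**
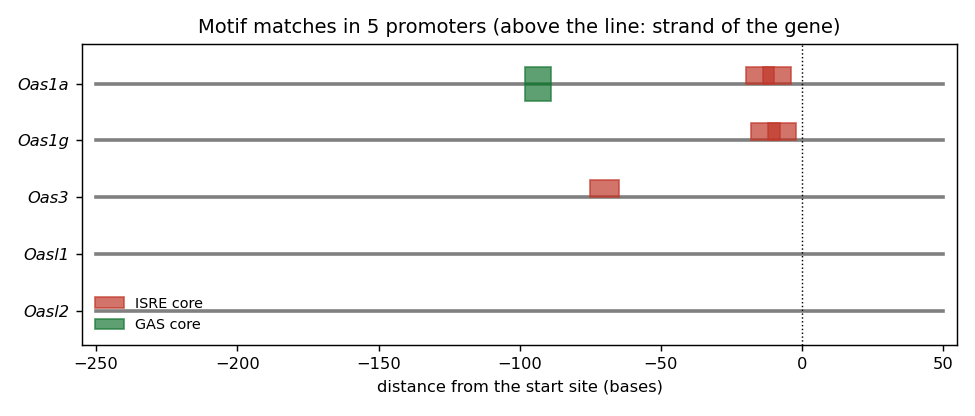
Matches to the ISRE core (red) and the GAS core (green) in the promoters of 5 OAS genes, by distance from the start site in bases; boxes above a line are on the strand of the gene and boxes below it on the other strand. Oas1a and Oas1g hold 2 overlapping ISRE cores within 20 bases of the start, Oas3 holds 1 further upstream, and the windows of Oasl1 and Oasl2 hold neither motif.

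Shared sequence limits how far Oas1a and Oas1g can be read apart. Their promoters were identical at 90.2% of 102 aligned positions over the 100 bases before the start and at 82.8% of 256 over the 250 bases, with a longest identical run of 56 bases. Among the 31-base sequences of their transcripts, 68.7% of those of Oas1a were also found in Oas1g and 54.6% of those of Oas1g in Oas1a. Pseudoalignment divides reads from such stretches between the genes by estimate, and each of these values is uncertain in that respect. The other members were nearly free of such sharing, with 0% of 31-base sequences shared with any other gene for Oas2, 0.409% for Oasl1, 1.23% for Oasl2 and 2.27% for Oas3.

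Expression is given below as the deposited normalized log2 value. The methods name both gene counts and length-scaled TPM as output of the summary step. Which of them underlies the deposited values is not given in the sources used here. Levels are therefore compared between libraries and not between genes, except where genes are summed on the linear scale. With values of RNA from a sorted population, a smaller share of cells that express a gene and less RNA per cell cannot be told apart. The sort marker followed the labels, and the nonclassical markers did so in part. Ly6c2 lay between 8.56 and 8.72 in the 4 Ly6Chigh libraries and between 2.69 and 4.07 in the 4 Ly6Clow libraries, and Cd300e, the nonclassical marker with the largest subset difference, lay between 1.64 and 3.54 in the former and between 7.32 and 7.87 in the latter. Of 9 nonclassical markers, 6 were lower in CT Ly6Chigh than in CT Ly6Clow MCs, and Cx3cr1, Itgal and Nr4a1 were 0.83, 0.25 and 0.18 higher. The CT duplicates correlated at r = 0.968 across genes in both subsets.

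The first question was how the family differs between the MC subsets of CT mice. All 6 members were higher in Ly6Chigh than in Ly6Clow MCs, by 2.64 to 8.02-fold on average. Of these, 4 genes passed the criteria for a differentially expressed gene (DEG), an adjusted p below 0.01 and a log2 fold change (log2FC) above 1, while Oas2 and Oasl1 did not. Among all genes, 2.10% were called higher in Ly6Chigh MCs by this rule. Test values come from limma over all genes with Benjamini-Hochberg adjustment, and they are no independent support, since the family was chosen with results of these libraries known.

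Oas1a, which encodes a catalytically active OAS1 enzyme, had log2 values of 6.37 and 6.24 in the CT Ly6Chigh libraries and 3.84 and 4.01 in the CT Ly6Clow libraries. The duplicates lay close together and the subsets far apart, with a log2FC of 2.38 (SE 0.126, adjusted p = 0.0058). Oas1g stood at 4.58 and 4.50 in Ly6Chigh against 1.75 and 1.57 in Ly6Clow MCs, a log2FC of 2.88 (SE 0.186, adjusted p = 0.00734). Both copies had Ly6Chigh above Ly6Clow MCs, and given their shared sequence the difference of one copy cannot be told apart from that of the other.

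Oas3, which encodes the largest OAS enzyme, was the most evenly measured member. Its values were 7.58 and 7.61 in Ly6Chigh and 5.37 and 5.31 in Ly6Clow MCs, a log2FC of 2.25 (SE 0.0707, adjusted p = 0.00354). Oas2, a membrane-associated synthetase, measured 6.52 and 6.46 in Ly6Chigh but 3.62 and 4.42 in Ly6Clow MCs. The Ly6Clow duplicates of Oas2 differed by 0.804, and its log2FC of 2.47 (SE 0.314, 95% interval 1.56 to 3.38) had an adjusted p of 0.0211, outside the criteria.

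The OAS-like genes stood at both ends of the family in the size of the subset difference. Oasl2 had values of 8.03 and 7.87 in Ly6Chigh and 4.78 and 5.11 in Ly6Clow MCs, with a log2FC of 3.00 (SE 0.152, adjusted p = 0.00551). Oasl1 had 3.07 and 3.28 in Ly6Chigh and 2.14 and 1.41 in Ly6Clow MCs, with a log2FC of 1.40 (SE 0.346, 95% interval 0.40 to 2.41, adjusted p = 0.0726). In none of the 6 genes did the CT subsets overlap, an order that 30.3% of all genes showed. The member median was 2.43, against -0.09 over all genes. These 4 calls rest on the complete set of libraries: with any one of the 4 CT libraries left out, 0 of the 6 members and 0 of all genes were called by limma, with 4651 to 5241 genes at an unadjusted p under 0.05.

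**Figure D2:**
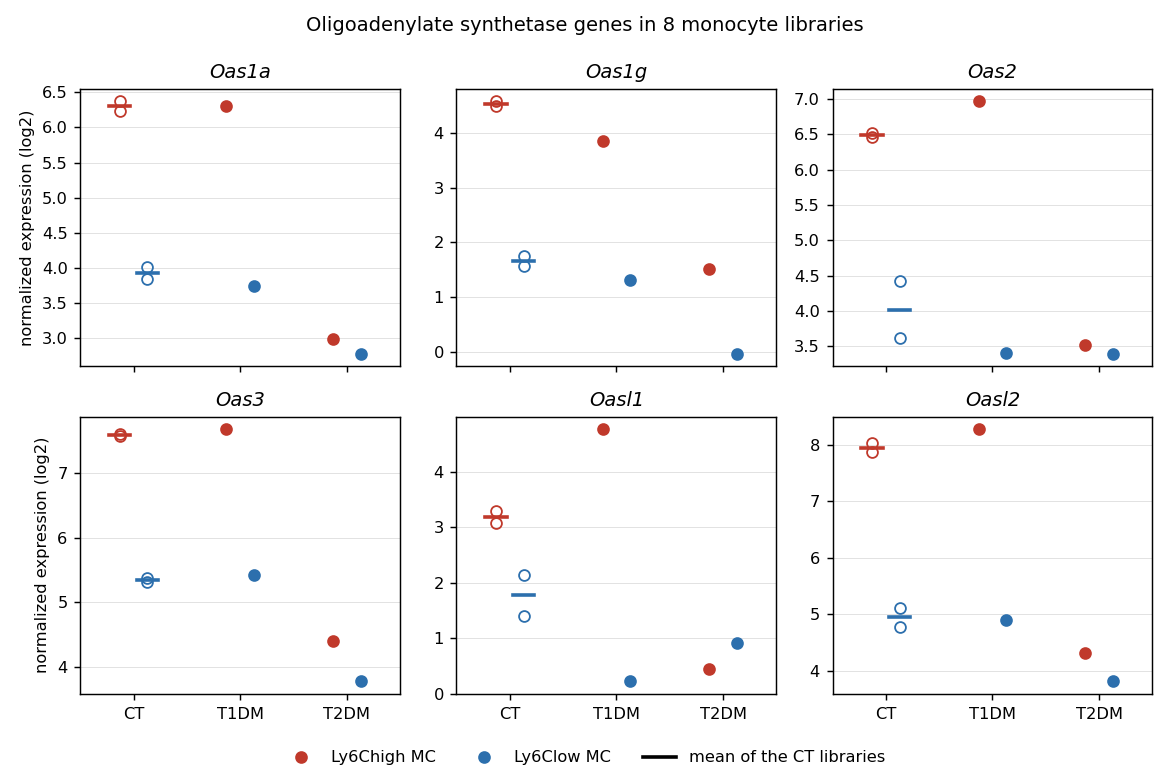
Normalized log2 expression of the 6 OAS genes in the 8 libraries, by mouse group; red circles are Ly6Chigh and blue circles Ly6Clow MCs, open circles are the CT duplicates with a bar at their mean, and the vertical axes differ between genes. Ly6Chigh lies above Ly6Clow in CT and T1DM for every gene, whereas the T2DM Ly6Chigh library lies below all 4 CT libraries for every gene.

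In T1DM mice the subset difference was present in every member. With 1 library per subset there is no test, and a difference past 2-fold is counted instead. Oasl1 had the widest gap, from 0.22 in Ly6Clow to 4.77 in Ly6Chigh MCs, a difference of 4.54 on the log2 scale, where CT MCs differed by 1.40. Oas2 followed with 6.97 against 3.41, a difference of 3.56, and Oasl2 with 8.27 against 4.90, a difference of 3.37.
Oas1a (6.30 against 3.74), Oas1g (3.86 against 1.32) and Oas3 (7.68 against 5.43) had differences of 2.56, 2.54 and 2.25, beside CT values of 2.38, 2.88 and 2.25. All 6 members were past 2-fold, as were 11.0% of all genes in that direction. The member median was 2.97, against -0.04 over all genes.

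In T2DM mice most of the subset difference was absent. The T2DM Ly6Chigh library had 2.99 for Oas1a, 3.52 for Oas2, 4.41 for Oas3 and 4.32 for Oasl2, and the T2DM Ly6Clow library had 2.78, 3.40, 3.78 and 3.82 for the same genes. The differences were 0.21, 0.12, 0.63 and 0.50 on the log2 scale, all under 2-fold. Oas1g alone was past 2-fold, with 1.51 against -0.03 and a difference of 1.55, and 11.3% of all genes were past 2-fold in this direction. Oasl1 was lower in Ly6Chigh than in Ly6Clow MCs, at 0.44 against 0.92, a difference of -0.48 between low values that was 0.08 after quantile normalization of the libraries. The member median was 0.36, against -0.03 over all genes. The call of Oas1g was lost when it was summed with Oas1a, and when 1 was added on the linear scale before taking log2.

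**Figure D3:**
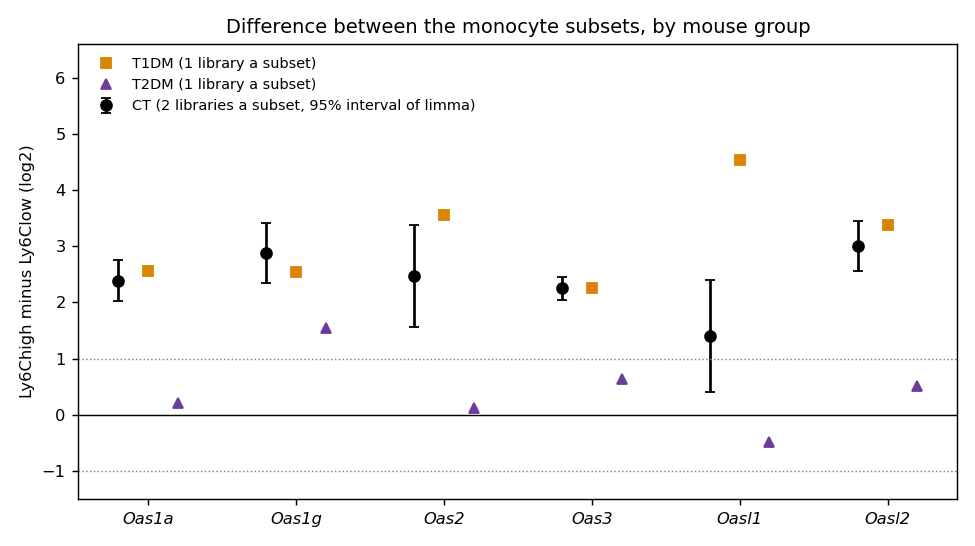
Difference between Ly6Chigh and Ly6Clow MCs on the log2 scale for each OAS gene in CT (black circles, 2 libraries per subset, bars are the 95% interval of limma), T1DM (orange squares) and T2DM mice (purple triangles, 1 library per subset each); dotted lines mark 2-fold. CT and T1DM differences lie between 1.40 and 4.54, and T2DM differences between -0.48 (Oasl1, 0.08 after quantile normalization) and 1.55.

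A fit over all 8 libraries with mouse group as a term gave the subset difference averaged over the 3 mouse groups. CT, with 2 libraries per subset, weighs most in it. It has no term for a subset difference that varies between groups. In this fit, 5 members were called higher in Ly6Chigh MCs (limma with Benjamini-Hochberg adjustment), against 5.37% of all genes. The log2FC was 2.47 for Oasl2 (adjusted p = 0.00177), 2.46 for Oas1g (adjusted p = 0.000306), 2.16 for Oas2 (adjusted p = 0.00703), 1.88 for Oas1a (adjusted p = 0.00366) and 1.85 for Oas3 (adjusted p = 0.00071). Oasl1, with the unlike differences in the 3 mouse groups given above, had a log2FC of 1.72 (95% interval 0.19 to 3.24) and an adjusted p of 0.0814. Since the fit averages over mouse groups, it was repeated without each model. Without the T2DM libraries the log2FC of Oas1a was 2.44 and that of Oasl2 3.13. Without the T1DM libraries only Oas1g and Oas3 were called, as also by eBayes without a trend of variance on expression, and with any single CT library left out the called members were Oas1g, Oas3 and Oasl2.

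The second question was how the diabetic libraries compared with CT in the same subset. In T2DM Ly6Chigh MCs all 6 members lay 6.68 to 12.4-fold below the CT mean. This is the contrast in whose view the family was chosen, so the values are a description. The difference was -3.63 on the log2 scale for Oasl2, -3.31 for Oas1a, -3.18 for Oas3, -3.03 for Oas1g, -2.97 for Oas2 and -2.74 for Oasl1. The CT duplicates differed by at most 0.209 in the same genes. All 6 were past 2-fold lower, beside 7.89% of all genes, and their median was -3.11, against 0.02 over all genes.
The T2DM Ly6Chigh library was also below each of the 4 CT libraries, Ly6Clow included, in all 6 genes, beside 23.3% of all genes. It lay 0.15 below the CT Ly6Clow mean for Oas1g, 0.50 for Oas2, 0.63 for Oasl2, 0.93 for both Oas1a and Oas3 and 1.34 for Oasl1.

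T1DM Ly6Chigh MCs did not share this pattern. Oas1a differed from the CT mean by -0.01 and Oas3 by 0.09 on the log2 scale, Oasl2 by 0.33, Oas2 by 0.47 and Oas1g by -0.67. Oasl1 was the one member past 2-fold, 1.59 higher and thus 3.01-fold above CT, where 5.11% of all genes were past 2-fold higher. Of the members, 4 lay above both CT Ly6Chigh libraries, beside 36.3% of all genes, and the member median was 0.21, against 0.02. Between the diabetic libraries, which were run on the same sequencer, T2DM was below T1DM in Ly6Chigh MCs by 4.33 for Oasl1, 3.96 for Oasl2, 3.45 for Oas2, 3.30 for Oas1a, 3.27 for Oas3 and 2.35 for Oas1g. All 6 were past 2-fold lower there, beside 10.8% of all genes.

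In Ly6Clow MCs, where the family was low to begin with, the T2DM library lay below both CT duplicates for all 6 members, as it did for 37.0% of all genes. The differences from the CT mean were -1.69 for Oas1g, -1.56 for Oas3, -1.14 for Oas1a and -1.13 for Oasl2, each past 2-fold, and -0.86 for Oasl1 and -0.62 for Oas2, which were not. These 4 members stand beside 5.68% of all genes past 2-fold lower. The member median was -1.14, against -0.01 over all genes.
For Oas2 the T2DM value of 3.40 was 0.22 below the nearer CT duplicate and the duplicates were 0.804 apart, so that the difference is within their spread. In T1DM Ly6Clow MCs Oasl1 was the one member past 2-fold, at -1.55, beside 4.78% of all genes past 2-fold lower. Oas2 differed by -0.61, Oas1g by -0.34, Oas1a by -0.19, Oasl2 by -0.04 and Oas3 by 0.09. Of these 6 differences 5 were negative, and 4 members lay below both CT duplicates, beside 34.9% of all genes. The median was -0.26, against 0.00. Against T1DM Ly6Clow MCs, T2DM was 1.65 lower for Oas3, 1.35 for Oas1g, 1.09 for Oasl2 and 0.96 for Oas1a, was 0.01 lower for Oas2 and was 0.69 higher for Oasl1. There 3 members were past 2-fold lower, beside 7.97% of all genes.

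**Figure D4:**
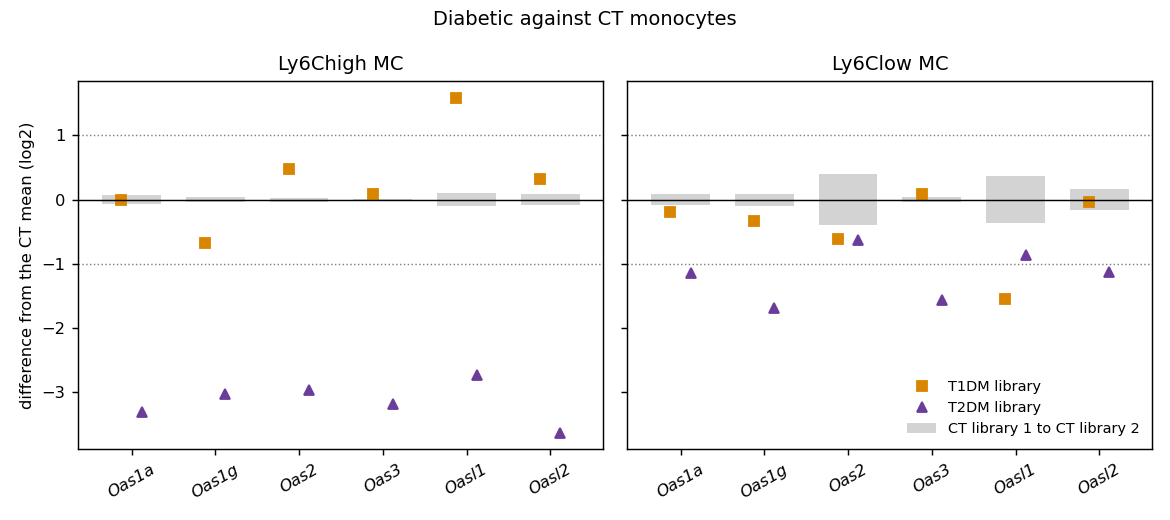
Difference of the T1DM (orange squares) and T2DM library (purple triangles) from the CT mean on the log2 scale for each OAS gene, in Ly6Chigh MCs on the left and Ly6Clow MCs on the right; grey bars span the CT duplicates around their mean and dotted lines mark 2-fold. In Ly6Chigh MCs the T2DM points lie between -3.63 and -2.74, and the T1DM points between -0.67 and 1.59.

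The members moved together across the libraries. Each was correlated with the mean of the other 5 over the 8 libraries, with r = 0.994 for Oasl2, 0.992 for Oas1a, 0.976 for Oas3, 0.975 for Oas2, 0.952 for Oas1g and 0.884 for Oasl1. These are descriptions of a family chosen for its pattern, and the libraries share subset, mouse group and sequencer. With each gene centred on its own mean, the family mean was 2.06 in T1DM Ly6Chigh and 1.77 and 1.74 in CT Ly6Chigh libraries. It was -0.62 and -0.67 in CT Ly6Clow, -1.08 in T1DM Ly6Clow, -1.39 in T2DM Ly6Chigh and -1.81 in T2DM Ly6Clow libraries. T2DM Ly6Chigh MCs thus ranked with the Ly6Clow libraries and not with the other Ly6Chigh libraries.

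Because reads of Oas1a and Oas1g cannot be fully separated, their sum on the linear scale was followed as well. Its log2 value was 6.74 and 6.62 in CT Ly6Chigh, 4.14 and 4.26 in CT Ly6Clow, 6.54 and 3.98 in T1DM Ly6Chigh and Ly6Clow, and 3.44 and 2.97 in T2DM Ly6Chigh and Ly6Clow libraries. The order of libraries was that of the family mean, except that T1DM Ly6Chigh lay below CT Ly6Chigh here. Oas1a made up 73.6% to 87.6% of the sum over the 8 libraries. The lowest share was in T2DM Ly6Chigh and the highest in T2DM Ly6Clow MCs. This share depends on the unit of the values, which is not given, and on the estimated division of shared reads. The Oas1 copies outside the chosen family followed it in part. Oas1b, a transcribed pseudogene in the reference annotation, had 3.86 and 4.42 in CT Ly6Chigh, 3.45 and 3.41 in CT Ly6Clow, 4.03 and 3.69 in T1DM and 2.77 and 3.60 in T2DM Ly6Chigh and Ly6Clow libraries. Oas1c had 1.99 and 1.84, 2.93 and 3.19, 2.47 and 2.43, and 1.57 and 2.21 in the same order.
In CT MCs the log2FC was 0.71 for Oas1b (95% interval -0.02 to 1.44, adjusted p = 0.139) and -1.15 for Oas1c (95% interval -1.80 to -0.50, adjusted p = 0.0467), neither within the criteria of the limma test. T2DM differed from CT in Ly6Chigh MCs by -1.38 for Oas1b, past 2-fold, and by -0.34 for Oas1c, and lay below each of the 4 CT libraries in both. Oas1b also had both CT Ly6Chigh libraries above both CT Ly6Clow libraries, whereas Oas1c had the reverse order. The Oas1c promoter held the same pair of overlapping ISRE cores as Oas1a, on the opposite strand, at 114 to 105 and 108 to 99 bases before its start.

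Genes that act on 2-5A or beside it differed little between the same libraries. Abce1, known for ribosome recycling and listed here for its link to the 2-5A pathway, had log2 values of 5.80 and 6.04 in CT Ly6Chigh, 6.33 and 6.27 in CT Ly6Clow, 5.71 and 6.32 in T1DM and 6.29 and 6.17 in T2DM Ly6Chigh and Ly6Clow libraries. Pde12, a phosphodiesterase that degrades 2-5A, had 4.78 and 4.61, 4.85 and 5.17, 4.54 and 4.94, and 4.62 and 4.86 in the same order. Their T2DM differences from CT in Ly6Chigh MCs were 0.37 and -0.08, under 2-fold in both genes.
Neither gene was called between the subsets in the limma test, with a CT log2FC of -0.38 for Abce1 (95% interval -0.72 to -0.04, adjusted p = 0.112) and -0.31 for Pde12 (95% interval -0.81 to 0.19, adjusted p = 0.275).

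Among 10 other sensors of nucleic acids, 2 were called higher in CT Ly6Chigh MCs and 5 over the 8 libraries, in the limma tests. The CT log2FC was 1.56 for Zbp1, a sensor of Z-form nucleic acid, and 1.43 for Eif2ak2, the RNA-activated kinase PKR. Dhx58 (1.66), Ifih1 (1.29) and Tmem173 (1.09), which encode LGP2, MDA5 and STING, were called over the 8 libraries. Their T2DM differences from CT in Ly6Chigh MCs were smaller than those of the OAS genes, with a median of -0.91 over the 10 genes and 3 past 2-fold lower, Zbp1 at -1.58, Ifih1 at -1.33 and Eif2ak2 at -1.32.

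Of 12 interferon receptor and signalling genes, 3 were called higher in CT Ly6Chigh MCs and 2 over the 8 libraries. Irf7, the transcription factor that amplifies type I interferon output, had a CT log2FC of 2.36, and the receptor chain Ifnar2 one of 1.14. In T2DM Ly6Chigh MCs Irf7 differed from CT by -1.87, whereas Ifnar2 differed by -0.03. The median over the 12 genes was -0.37, with 11 lower and 4 past 2-fold. Of 9 interferon genes looked for, Ifnk and Ifng were in the table, and type I interferon genes other than Ifnk are not analysed here. Ifng lay at -1.95 and -1.94 in CT Ly6Chigh against 1.45 and 1.21 in CT Ly6Clow libraries and was called lower in Ly6Chigh MCs over the 8 libraries, with a log2FC of -2.97. Its value was the same, -2.25, in the T1DM and T2DM Ly6Chigh libraries. At such low values the size of the Ifng difference depends on the pseudocount, which is not given. Ifnk was not called.

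Of 24 other interferon-stimulated genes, 8 were called higher in CT Ly6Chigh MCs and 12 over the 8 libraries. The largest CT log2FCs of called genes were 2.83 for Ifit3, which binds signalling adaptors of RNA sensing, 2.80 for Slfn5, 2.44 for Rtp4, 2.39 for Mx1 and 2.38 for Ifi27l2a. In T2DM Ly6Chigh MCs all 24 lay below the CT mean and 21 were past 2-fold, with a median of -1.79. Rtp4 differed by -3.49, Ifit3 by -3.32, Ifi27l2a by -2.61, Mx1 by -2.17 and Slfn5 by -1.38. In T1DM Ly6Chigh MCs the median of the 24 was 0.01, and 1 was past 2-fold. In T2DM Ly6Clow MCs it was -0.32, where the OAS median was -1.14. These lists were compiled with the results known and share the CT libraries with the family, and their values are set beside it without a test.

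**Figure D5:**
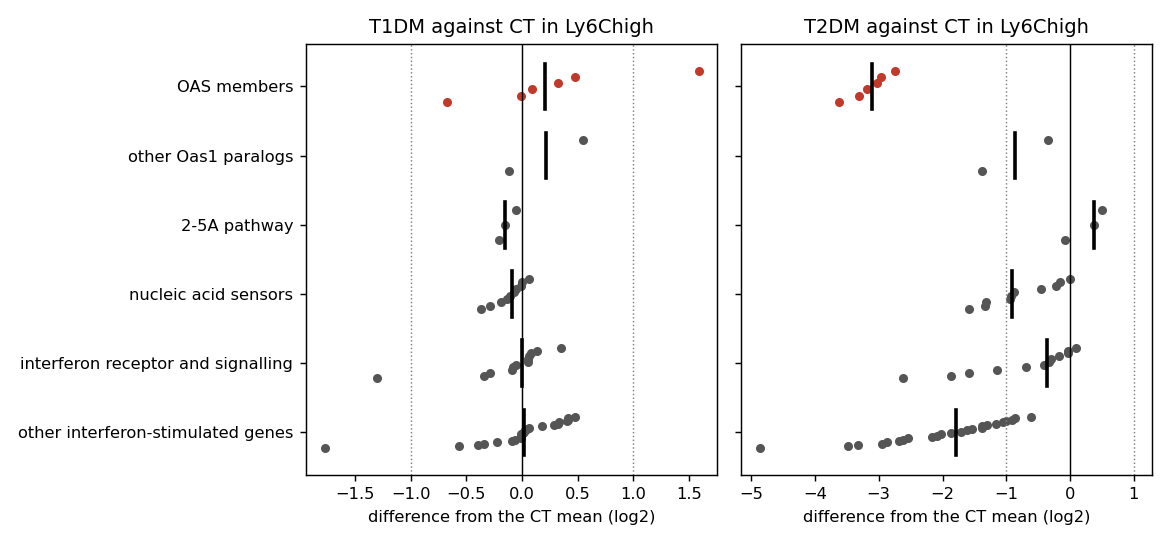
Difference of the T1DM (left) and T2DM library (right) from the CT mean in Ly6Chigh MCs on the log2 scale, for each gene of 6 lists; every point is a gene, red for the OAS members, the black bar is the list median and dotted lines mark 2-fold. The T2DM medians are -3.11 for the OAS members, -1.79 for the other interferon-stimulated genes and 0.37 for the 2-5A pathway, and the T1DM medians lie between -0.16 and 0.22.

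Markers of other cells differed between the same libraries. The level of a marker list is the log2 of its summed linear values, in which genes with high values weigh most. For 7 B cell markers it ran from 7.90 to 8.86 in Ly6Chigh and from 11.9 to 12.2 in Ly6Clow libraries. Of the 7, 6 were called lower in CT Ly6Chigh MCs and 7 over the 8 libraries. The level of 6 NK cell markers ran from 4.50 to 6.52 in Ly6Chigh and from 7.11 to 9.49 in Ly6Clow libraries. Of the 6, 5 were called lower in CT Ly6Chigh MCs and 6 over the 8 libraries. T2DM had the lowest NK cell level in both subsets. The level of classical MC markers was highest in T2DM Ly6Chigh MCs, at 13.9, against 12.4 to 12.7 in the other Ly6Chigh libraries. Against the CT mean 6 of 7 were higher there, and the sort marker Ly6c2 differed by -0.01. Of the 7, 5 were called higher in CT Ly6Chigh MCs. The level of nonclassical MC markers was lowest in T2DM Ly6Chigh MCs, at 10.6, against 11.2 to 11.6. Against the CT mean 8 of 9 were lower there and Fcgr4 was 0.09 higher. Treml4 was 6.14 there, above its 5.77 in T1DM Ly6Chigh MCs. Of 4 measured markers of plasmacytoid dendritic cells, which are a main source of type I interferon, Siglech lay between -0.02 and 0.98 over the 8 libraries, Ccr9 between 3.58 and 4.60, Runx2 between 6.16 and 7.45 and Tcf4 between 6.92 and 7.98. Over the 8 libraries, 0 markers of neutrophils, plasmacytoid dendritic cells, platelets and erythroid cells were called (2, 3, 0 and 0 of them had an unadjusted p under 0.05), while 1 T cell, 2 dendritic cell and 1 eosinophil marker were called lower in Ly6Chigh MCs (limma with Benjamini-Hochberg adjustment). Against CT in Ly6Chigh MCs, the T2DM library had a median of -1.66 for NK cell markers (6 of 6 past 2-fold lower). The median was -1.66 for dendritic cell (3 of 5 past 2-fold lower) and -1.13 for platelet markers (3 of 5 past 2-fold lower). For B cell markers it was -0.54. Neutrophil markers were mixed, with a median of 1.44 and 3 of 5 past 2-fold higher, but Retnlg at -3.27 and Cxcr2 at -0.14. The T1DM library had a median of 1.61 for neutrophil markers, 4 of 5 past 2-fold higher. The part of these cells in the OAS values was not tested.

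Genes with the pattern most like the family were sought among the 5226 genes whose log2 values averaged 5 or more, by Pearson r with the family mean over the 8 libraries. The closest was Ifi213 (r = 0.995), a PYHIN family gene, with 7.04 and 7.07 in CT Ly6Chigh, 4.94 and 5.00 in CT Ly6Clow, 7.41 and 4.83 in T1DM and 4.40 and 4.38 in T2DM Ly6Chigh and Ly6Clow libraries. It was followed by Lgals3bp (0.991), Colgalt1 (0.988), Sp100 (0.985), Irgm1 (0.984), Ifi209 (0.983), Slfn8 (0.981) and H2-T24 (0.978). Their sizes of change were unlike: T2DM differed from CT in Ly6Chigh MCs by -2.66 for Ifi213 and -2.44 for Lgals3bp but by -0.48 for Colgalt1. Of these 8 genes, 2 were also among the 8 closest by Spearman rho, and 4 when genes averaging 3 or more were considered. Over 8 libraries rho takes few values. The lowest rho among the 8 closest was 0.929, and any ties were ordered by gene symbol, so the overlap of 2 can depend on that order.

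Apart from Oas genes, no measured gene lay within either cluster, and the nearest measured genes on each side shared the family's pattern in part at most. Dtx1, which borders the larger cluster and encodes a Notch regulator, had 1.56 and 0.43 in CT Ly6Chigh against 4.32 and 3.84 in CT Ly6Clow libraries, the opposite order to that of Oas2 beside it. Its T2DM difference from CT in Ly6Chigh MCs was -1.52, between low values. On the other side, Rph3a lay between -0.83 and 1.08 in all libraries. Of the genes that border Oasl1 and Oasl2, 4930519G04Rik lay between -1.35 and 0.76 and 2210016L21Rik between 3.35 and 4.36 over the 8 libraries. In Dtx1, Rph3a and 2210016L21Rik the T2DM Ly6Chigh library lay below each of the 4 CT libraries, as in the OAS genes and in 23.3% of all genes.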

How the data were processed

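The authors pseudoaligned reads with Kallisto 0.45 and summarised transcripts to genes in R 3.6.1, using tximport 1.12.3 (mm10 in the submitters' processing notes), and deposited normalized log2 values per gene. Their normalization and pseudocount are not given in the sources used here. Counts were not used here, and the depth behind a low value is unknown.

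From these values, limma 3.58.1 (lmFit, eBayes with trend, R 4.3.3) was fitted over all 16486 genes with Benjamini-Hochberg adjustment, for subset in the 4 CT libraries and for subset with mouse group as a term in all 8. DEGs had an adjusted p below 0.01 and an absolute log2FC above 1. Comparisons with 1 library on a side are log2 differences with no test. Both fits were first tested on simulated data. The members, gene lists and tests were chosen with earlier results of these data known. Besides the members, genes are named if called in a subset test (up to 5 per list by absolute log2FC), with the 2-5A pathway genes. Genes of these lists that are not named are not reported here. The Ly6g symbol was not found in the table. The replicate numbers of the labels were not taken as pairs of CT libraries (correlation of deviations 0.00892). This value cannot decide pairing, since the duplicates of a subset may share their RNA. Alternatives were eBayes without trend, an adjusted p of 0.05, a replicate block, 1 added on the linear scale, quantile normalization, Oas1a and Oas1g summed, a mean log2 filter of 1, and leaving out libraries. Promoters and gene positions are RefSeq's (GRCm38.p6). The transcripts searched for shared 31-base sequences are GENCODE's, and the shares depend on that transcript set.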

Additional observations from a re-analysis of the deposited data

Results flagged for a closer look

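In Ly6Chigh MCs, 4 members lay above both CT duplicates in T1DM and below both in T2DM. The differences from the CT mean on the log2 scale were 0.47 and -2.97 for Oas2, 0.086 and -3.18 for Oas3, 1.59 and -2.74 for Oasl1, and 0.33 and -3.63 for Oasl2, in T1DM and T2DM respectively. In Ly6Clow MCs Oas3 alone did so, with 0.0878 in T1DM and -1.56 in T2DM. The share of all genes with both orders was not counted in either subset. The T1DM order alone was shown by 36.3% of all genes in Ly6Chigh MCs, and the T2DM order alone by 37.0% in Ly6Clow MCs. Oasl1 also differed in direction between mouse groups in the subset contrast, being lower in Ly6Chigh than in Ly6Clow MCs of T2DM mice (-0.48, but 0.08 after quantile normalization) and higher in CT and T1DM mice. With 1 library per diabetic group, none of these differences between groups was tested.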

How the results depend on the processing

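In CT MCs, 4 members were called, and 0 were called by eBayes without the trend, with the replicate block, or with any CT library left out (0 to 0). No gene of the table was called in those fits, although 4651 to 5810 had an unadjusted p under 0.05. Counts over all genes were 346 higher and 235 lower, against 834 and 1102 at an adjusted p of 0.05 and 619 and 470 with the filter on the mean. Over the 8 libraries, 5 members were called, against 2 without the trend, 4 with the replicate block, and 2 to 5 when libraries were left out (3 without any single CT library, 2 without the T1DM libraries, 5 without the T2DM libraries). In T2DM MCs the 1 member past 2-fold between subsets became 0 with 1 added on the linear scale and 0 with Oas1a and Oas1g summed. In T1DM against CT Ly6Clow MCs the 1 member past 2-fold became 1 to 2 with a CT duplicate left out. The other 35 counts of members stayed within 1.5 times, and no called direction was reversed. The uncalled T2DM subset difference of Oasl1 changed sign under quantile normalization (-0.48 to 0.08). With a CT duplicate left out, 2 uncalled T1DM differences changed sign, that of Oas1a in Ly6Chigh MCs (-0.07 to 0.06) and that of Oasl2 in Ly6Clow MCs (-0.21 to 0.12). The cause of these shifts was not tested, apart from the fewer libraries of the fits that leave some out. With no pairing by origin known, the replicate block says nothing on effect size. Depth per gene was not available, which limits Oasl1 and Oas1g most, whose log2 values fell below 1 in some libraries.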
